A study of Mus musculus with 5 samples.

Results

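Small nucleolar RNAs (snoRNAs) were read from 53 probe set rows of a whole-transcript array table of 34760 rows. A row was taken when the platform annotation gave it exactly 1 gene symbol and that symbol began with Snord or Snora followed by a digit. There were 31 box C/D rows (Snord) and 22 H/ACA rows (Snora) for 51 symbols, and 22 further rows that list a snoRNA among several symbols were left out. The symbols alone set the membership. The group was nevertheless taken up with results of this comparison known, so the counts below describe it and support nothing beyond these arrays. All 53 rows matched a gene of the RefSeq table of GRCm38.p6 under the same symbol, which RefSeq classes as a snoRNA for 52 rows and as an snRNA for Snord73b.

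The RNA came from MLE-15 cells, a mouse lung epithelial line derived from tumours of mice in which the human SP-C promoter drives the SV40 large tumour antigen. Every culture, control or knockdown, carried a VSV-G pseudotyped lentivirus with a GFP reporter, delivered by an infection of 16 h at a multiplicity of 50 with 5 µg/ml polybrene. All were then selected with 5 µg/ml puromycin for 6 days. The lentivirus encoded 1 shRNA against Grhl2, a transcription factor of epithelia, in 3 samples, and a non-targeting shRNA in 2 samples. The series asks which genes depend on Grhl2 in lung epithelium. Each sample was its own transduction of the same line, with 1 array each, and nothing in the labels points to separate parental cultures. Epithelial markers (Epcam, Cdh1, Krt8, Krt18, Nkx2-1) had mean log2 values of 10.00 to 12.13, and those of fibroblasts, endothelium and leukocytes (Col1a1, Col1a2, Pecam1, Cdh5, Ptprc, Cd68) had 4.21 to 6.14. The type II cell markers Sftpc, Abca3 and Sftpb were at 6.83, 8.82 and 12.12. Grhl2 itself was at 7.43, 7.43 and 7.60 on the shRNA arrays and 7.77 and 7.68 on the control arrays. Its log2 difference was −0.24 (SE 0.066, limma adjusted p = 0.090), a small difference that missed the threshold of 0.05.

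Most snoRNAs are cut from introns of host genes after splicing and act in the nucleolus. Box C/D snoRNAs pair with ribosomal RNA and direct the methyltransferase fibrillarin to a ribose, and H/ACA snoRNAs direct the pseudouridine synthase dyskerin to a uridine. A few members of either class do not modify but take part in cutting the ribosomal RNA precursor. Many mammalian host genes encode ribosomal proteins, and others make a spliced RNA with no known protein. An array probe cannot tell a mature snoRNA from the same sequence in an unspliced host transcript. The RNA was purified on silica columns, which retain RNAs of this length poorly, and the effect of that step on these values was not tested.

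SnoRNA signals were mostly higher on the Grhl2 shRNA arrays, by small amounts. A row entered the test when its mean log2 value over the 5 arrays was at least 4.22, which kept 49 of the 53. Of these 49, 10 rose, 0 fell and 39 did not pass a limma adjusted p of 0.05 over all 16230 rows tested. The called rows are 20.4% of the snoRNA rows, where 5.63% of all rows were called in either direction, 2.59% higher and 3.04% lower. An unadjusted limma p under 0.05 was found in 27 of the 49, 2 of them downwards. The share of all rows under that unadjusted p was not counted. Such counts, here and below, therefore have no background beside them. The log2 difference, shRNA minus control, was above 0 in 40 of the 49 rows (81.6%), against 51.1% of all rows. In 25 rows every shRNA array lay above both control arrays and in 5 below both, where 21.0% and 20.2% of all rows did so. The median difference was 0.15, against 0.002 over all rows. Nearly all calls were lost when either control array was left out, but that leaves 1 control and less precision in every row. How far the calls rest on the control values was not tested. Differences were above 0 in 38 of 49 rows without control replicate 1 and in 34 without control replicate 2. The number of calls was 5, 4 and 7 without shRNA replicates 1, 2 and 3. In all 10 called rows every shRNA array lay above both controls, so leaving out 1 array could not change their sign.

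**Figure D1:**
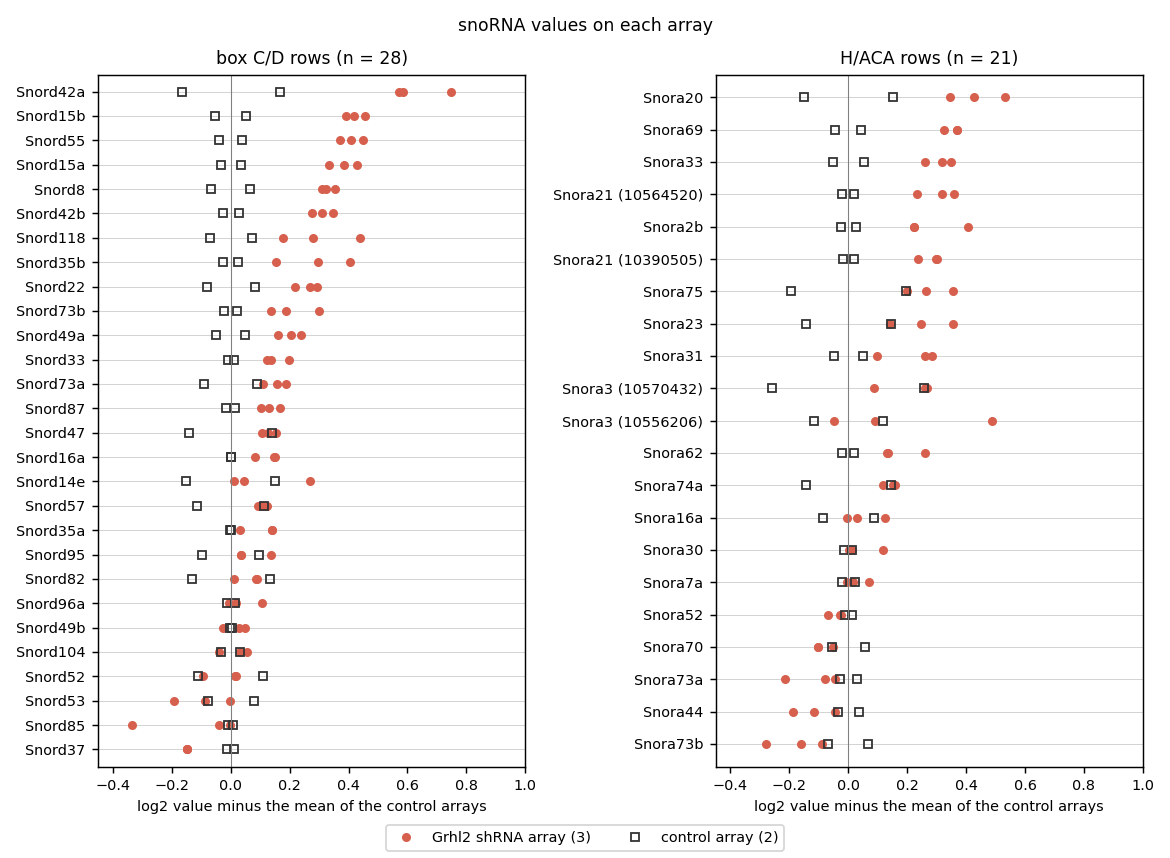
Values of the 49 tested snoRNA rows on each of the 5 arrays, as the log2 value minus the mean of the 2 control arrays, with rows ordered by their difference within each class. Filled circles are the 3 Grhl2 shRNA arrays and open squares the 2 control arrays; in 25 rows all circles lie to the right of both squares, and in 5 rows to the left.

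The largest rise was that of Snord42a (probe set 10388782), a box C/D snoRNA in an intron of the ribosomal protein gene Rpl23a. On the shRNA arrays its log2 values were 8.13, 7.96 and 7.97, against 7.22 and 7.55 in the controls. The means were 8.02 ± 0.10 (SD, n = 3) and 7.39 ± 0.23 (SD, n = 2), a 1.55-fold rise (log2 difference 0.63, SE 0.10, limma adjusted p = 0.024). The groups were apart, although the controls were themselves spread. Snord42b (10388784), in the same host, had 6.82, 6.85 and 6.89 on the shRNA arrays and 6.57 and 6.52 on the control arrays. It rose by 0.31 (SE 0.045, limma adjusted p = 0.017), with tight values in both groups. Only 1 of the pair, Snord42a, therefore reached a 1.5-fold change.

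Snord15a and Snord15b, a pair of box C/D snoRNAs in introns of Rps3, rose together. Snord15b (10565811) had 9.20, 9.23 and 9.27 on the shRNA arrays and 8.76 and 8.86 on the control arrays, a 1.34-fold rise (log2 difference 0.42, SE 0.049, limma adjusted p = 0.0095). Snord15a (10565813) had 8.10, 8.05 and 8.14 against 7.68 and 7.75, a rise by 0.38 (SE 0.048, limma adjusted p = 0.013). In both rows the gap between the groups was several times the spread within them. Both stayed past the threshold without any single shRNA array, and neither did without a control array.

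Snord55 (10515429), a box C/D snoRNA, gave 8.29, 8.21 and 8.25 on the shRNA arrays and 7.88 and 7.80 on the control arrays. It rose by 0.41 (SE 0.048, limma adjusted p = 0.0095), as clearly separated as the Rps3 pair. Snord38a (10515425) was too dim to be tested, with 4.13, 4.30 and 4.16 against 3.92 and 3.63. Snord8 (10419674), which lies within Chd8, a chromatin remodeller gene, and within the overlapping non-coding gene Gm26590, was the only called member outside a ribosomal protein gene. It had 7.40, 7.42 and 7.45 on the shRNA arrays and 7.03 and 7.16 on the control arrays, a rise by 0.33 (SE 0.052, limma adjusted p = 0.023).

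Among H/ACA snoRNAs, Snora69 (10604076), in the X-linked ribosomal protein gene Rpl39, rose most of those called. On the shRNA arrays it stood at 7.66, 7.66 and 7.61, against 7.33 and 7.24 in the controls, a 1.28-fold rise (log2 difference 0.35, SE 0.046, limma adjusted p = 0.014). Snora33 (10368277), in Rps12, had 7.04, 7.01 and 6.95 against 6.74 and 6.64 and rose by 0.31 (SE 0.051, limma adjusted p = 0.025). Both rows had all shRNA arrays above both controls.

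Snora21, in Rpl23, has 2 rows of very different brightness, and both rose. The brighter row (10390505) had 10.98, 10.92 and 10.98 against 10.70 and 10.66, a difference of 0.28 (SE 0.044, limma adjusted p = 0.022). The dimmer row (10564520) had 6.81, 6.68 and 6.77 against 6.47 and 6.43, a difference of 0.30 (SE 0.051, limma adjusted p = 0.025). The differences of these rows lie within 1 SE of each other, although their signals are far apart. Both were placed in Rpl23 by symbol, and whether the dimmer row reads that locus was not checked. Rows of the same symbol can share signal, so they are not separate evidence. Snora3, in Rpl27a, also has 2 rows, at mean levels of 9.68 and 10.08, and neither passed. Their differences were 0.18 (SE 0.15) and 0.21 (SE 0.14), and the groups overlapped in both. The brighter row was at −0.05 without control replicate 2.

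Snora20 (10441813), in the chaperonin gene Tcp1, had the largest H/ACA difference with all arrays and stood just outside the threshold. It gave 5.67, 5.75 and 5.85 on the shRNA arrays and 5.47 and 5.17 on the control arrays (log2 difference 0.43, SE 0.096, limma adjusted p = 0.051). It passed when 1 row per symbol was kept, each array was centred on its median, quantile normalization was repeated, arrays were weighted or the variance prior was trended and robust, and in no other setting run. Without control replicate 2 its difference was 0.28. Snora2b (10432178), at a low mean level of 4.83, was the next largest H/ACA row that did not pass, at 0.28 (limma adjusted p = 0.059).

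The snoRNAs that take part in precursor cutting did not pass, and they pointed in different directions. Snord118, the U8 RNA needed for maturation of the large subunit RNAs, had 8.88, 8.62 and 8.72 against 8.51 and 8.37, a difference of 0.30 (limma adjusted p = 0.091). Snord118 was also the only member that the RefSeq table places inside no other gene. Snord22, the U22 RNA of small subunit maturation, had 7.61, 7.67 and 7.69 against 7.31 and 7.48, a difference of 0.26 (limma adjusted p = 0.054). Snord14e, a U14 RNA in the heat shock gene Hspa8, was at 0.11 (limma adjusted p = 0.61) with overlapping groups, and at −0.04 without control replicate 2. Snora73a and Snora73b, the copies of the U17 RNA in Snhg3, were the reverse, with every shRNA array below both controls. Snora73b had 9.70, 9.51 and 9.63 against 9.86 and 9.72, a difference of −0.18 (limma adjusted p = 0.19), and Snora73a was at −0.11 (limma adjusted p = 0.32).

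No snoRNA row passed the threshold downwards. Besides the Snora73 pair, all shRNA arrays lay below both controls for Snord37, Snora44 and Snora52. Snord37 (10365003), in the elongation factor gene Eef2, was dim and had the same value, 4.49, on all 3 shRNA arrays, against 4.62 and 4.65 (difference −0.15, limma adjusted p = 0.081). Identical values also occurred for Snora2b on 2 arrays, and the spread of such dim rows is not a usual replicate spread. Snora44, in Snhg12, was at −0.12 (limma adjusted p = 0.27). The brightest member, Snora52 in Rplp2, had 12.02, 12.02 and 11.98 against 12.04 and 12.06, which puts the difference at −0.04 (95% interval from limma, −0.14 to 0.06).

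None of the 5 brightest box C/D rows passed. Their mean log2 levels were 11.71 for Snord104, 11.50 for Snord57, 11.15 for Snord49b, 11.04 for Snord35a and 10.47 for Snord35b. Their differences were 0.02, 0.11, 0.02, 0.10 and 0.29 (limma adjusted p = 0.89, 0.41, 0.86, 0.27 and 0.077). Snord104 was at −0.02 without control replicate 2 and Snord57 at −0.006 without control replicate 1. The brightest H/ACA rows after Snora52 were the called Snora21 row, Snora73a, a Snora3 row and Snora44. Across the 49 rows, level and difference had a Spearman rho of −0.19, a description over rows that share the same 5 arrays. The 4 rows below the filter were Snora41, Snord38a, Snord58b and Snord61, at mean levels of 3.56 to 4.05, and the dimmest tested row was Snord37 at 4.55.

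**Figure D2:**
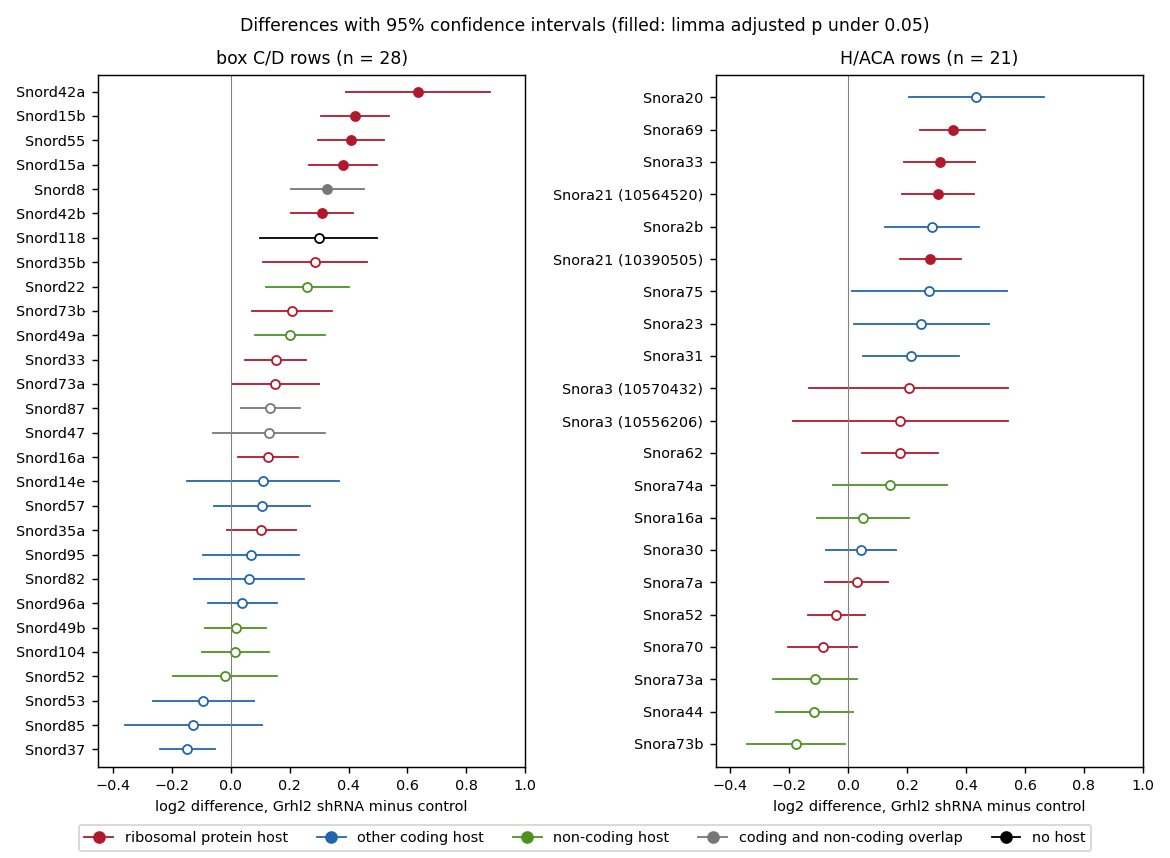
Log2 difference (Grhl2 shRNA minus control, 3 against 2 arrays) of each tested snoRNA row with its 95% confidence interval from limma, coloured by the gene that encloses it; filled circles passed an adjusted p of 0.05. The 6 filled box C/D and 4 filled H/ACA rows all lie to the right of 0, and 9 of the 10 are in ribosomal protein genes, as placed by symbol.

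By class, 6 of 28 tested box C/D rows rose and 22 did not pass (21.4% called). Of 21 tested H/ACA rows, 4 rose and 17 did not pass (19.0% called), where 5.63% of all rows were called. Differences were above 0 in 24 of 28 box C/D rows and in 16 of 21 H/ACA rows, against 51.1% of all rows. Groups were apart upwards in 16 and 9 rows, where 21.0% of all rows were, and downwards in 1 and 4 rows, where 20.2% were. The median difference was 0.13 for box C/D (range −0.15 to 0.63) and 0.18 for H/ACA (range −0.18 to 0.43). The gap between the medians, −0.05 for box C/D minus H/ACA, was smaller than its spread between replicates (SD 0.082), and it turned to 0.10 without control replicate 2.

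The control arrays bear on both medians. As medians over rows of the value minus the row's mean, box C/D rows stood at −0.10 and −0.09 on control replicates 1 and 2 and at 0.05, 0.03 and 0.08 on the shRNA arrays. H/ACA rows stood at −0.004 and −0.18 on the controls and at 0.05, 0.001 and 0.09 on the shRNA arrays. In both classes each shRNA array stood above both controls on this measure. For H/ACA, shRNA replicate 2 (0.001) and control replicate 1 (−0.004) were nearly level. The plain median level of the H/ACA rows was 8.380 on control replicate 1, and 8.357, 8.378 and 8.390 on shRNA replicates 1, 2 and 3. Of the 21 H/ACA rows, 17 were higher on control replicate 1 than on control replicate 2, and 13 had their lowest value on control replicate 2. Of the 28 box C/D rows, 13 were higher on control replicate 1 than on control replicate 2. Without control replicate 2 the H/ACA median difference was 0.060, and without control replicate 1 it was 0.26. The box C/D median was 0.16 and 0.15 in the same cases.

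**Figure D3:**
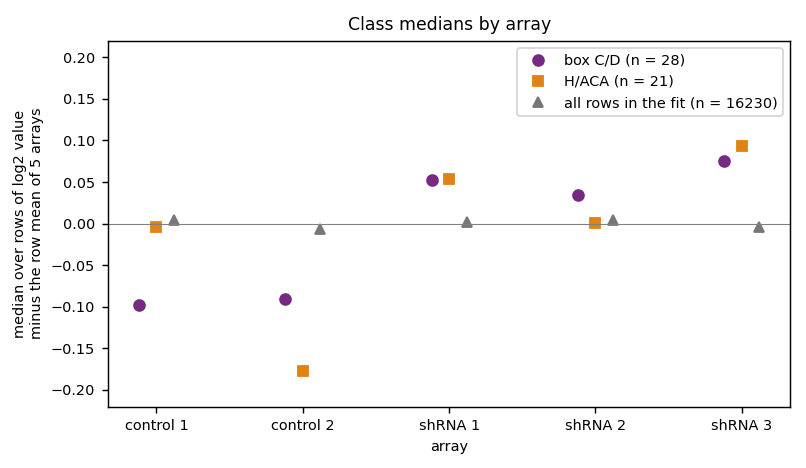
Median over rows of the log2 value minus the row's mean of the 5 arrays, for 28 box C/D rows, 21 H/ACA rows and all 16230 rows tested, on each array. Both control arrays lie near −0.1 for box C/D, while for H/ACA control 1 is near 0 and control 2 is at −0.18; all rows together stay near 0.

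Members were then grouped by the gene that encloses them in the RefSeq table, which gives no strand; this grouping was chosen after the values were seen. Of the 53 rows, 52 lay within another gene. Of 21 tested rows in ribosomal protein genes, 9 rose and 12 did not pass, where 5.63% of all rows were called. The difference was above 0 in 19 of them and the median was 0.21. All 11 box C/D rows among them had every shRNA array above both controls, with differences of 0.10 to 0.63, where 21.0% of all rows lay that way. They include Snord33 and Snord35a of Rpl13a at 0.15 and 0.10, Snord73a and Snord73b of Rps3a1 at 0.15 and 0.21, and Snord16a of Rpl4 at 0.13, none past the threshold. H/ACA rows in ribosomal protein genes went from −0.09 for Snora70, in Rpl10, to 0.35.

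Rows in other coding genes had a median of 0.09 over 14, and 0 of them passed (6 had an unadjusted p under 0.05), where 5.63% of all rows did. Within them the 6 H/ACA rows were all above 0, with a median of 0.26, and the 8 box C/D rows had a median of 0.05. Nucleolin, Ncl, shows both: Snora75 was at 0.27 (limma adjusted p = 0.20) and Snord82 at 0.06 (limma adjusted p = 0.70) from the same host, the latter at −0.07 without control replicate 1. Rows in genes with no known protein had a median of 0.02 over 10, and 0 passed (3 had an unadjusted p under 0.05). Snord49a and Snord49b, from 1 such gene, 2410006H16Rik, stood at 0.20 and 0.02. No test of a difference between these kinds of host was made. Without control replicate 1 the medians were 0.29, 0.11 and 0.07 for ribosomal protein, other coding and non-coding hosts, and without control replicate 2 they were 0.19, 0.07 and −0.03. With a trended robust prior, 12, 2 and 2 rows passed, but the share of all rows that passed with that prior was not counted.

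**Figure D4:**
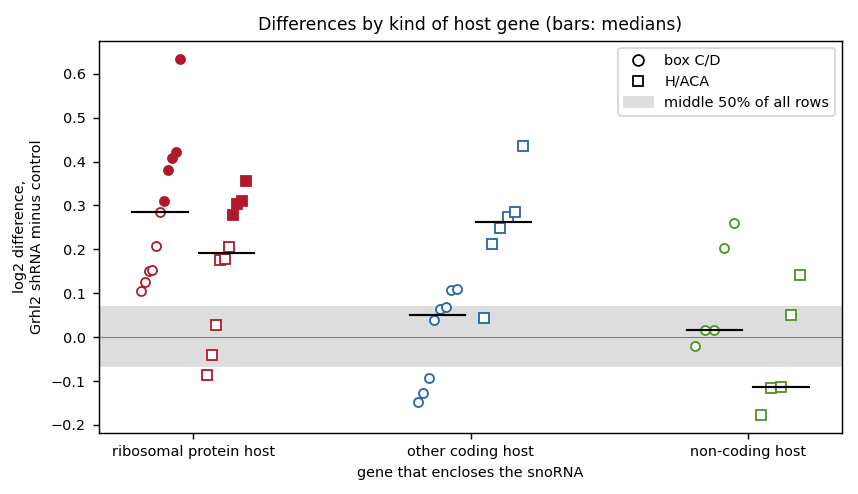
Log2 difference of each tested snoRNA row by the kind of gene that encloses it, without the 4 rows in overlapping or no hosts; circles are box C/D, squares H/ACA, filled symbols passed a limma adjusted p of 0.05, bars are medians and the grey band holds the middle 50% of all rows tested. Ribosomal protein hosts hold 9 filled symbols and the highest value, 0.63, while non-coding hosts hold none and the lowest, −0.18.

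Host rows, as chosen here, mostly had smaller differences than their snoRNAs. A host row was available for 28 snoRNA rows and 22 hosts, taking the brightest row of each host. This row was picked by symbol, and whether it reads the enclosing locus was not checked. Of the 22 hosts, 2 rose, 0 fell, 17 had a difference above 0 and the median was 0.10, where 5.63% of all rows were called and 51.1% lay above 0. Rps3 (10565802) rose by 0.21 (SE 0.046, limma adjusted p = 0.048), against 0.42 and 0.38 for its snoRNAs. Rps12 (10606581) rose by 0.25 (SE 0.047, limma adjusted p = 0.033), against 0.31 for Snora33. In 20 of the 28 pairs the snoRNA had the larger difference, and the pair medians were 0.21 for the snoRNAs and 0.10 over hosts. The exceptions were led by Snora52 at −0.04, whose host Rplp2 (10558914), read by a dim row, was at 0.23, and Snord53 at −0.09, whose host Wdr43 was at 0.15. Tcp1, the host of Snora20, was at −0.04 and Chd8 at 0.02. Across the 28 pairs Pearson's r was 0.30 and Spearman's rho 0.29, a description over pairs that share arrays and, in part, hosts.

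Host values depended on the row chosen. Rpl23a has 10 rows, whose differences ran from −0.01 to 0.36 and of which 2 were called higher. Ribosomal protein genes have many near-identical processed copies, so such rows can share signal and are uncertain. The Rpl23a row numbered close to Snord42a (10388776) was at −0.009, against 0.18 for the brightest row used above. For Rpsa, the row numbered close to Snora62 (10590253) was at 0.17, against 0.02 for the brightest row. The non-coding gene Gas5, which carries Snord47 and other box C/D snoRNAs, has 4 rows. One of them (10351026) had 10.01, 10.20 and 9.98 on the shRNA arrays and 9.51 and 9.52 on the control arrays, a rise by 0.55 (SE 0.072, limma adjusted p = 0.013). The other Gas5 rows were at −0.05, 0.05 and 0.01, and Snord47 itself was at 0.13 (limma adjusted p = 0.40) with overlapping groups, and at −0.01 without control replicate 1.

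**Figure D5:**
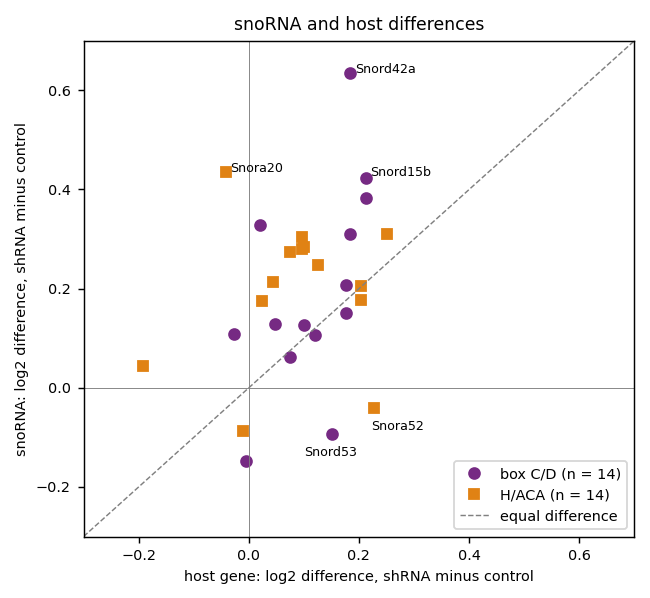
Log2 difference of 28 snoRNA rows (vertical) against that of the brightest row with the enclosing gene's symbol (horizontal), both Grhl2 shRNA minus control. The dashed line marks equal differences. In 20 of 28 pairs the snoRNA lies above the line, with Snord42a at 0.63 over a host value of 0.18.

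Since 9 of the 10 called rows were placed by symbol in ribosomal protein genes, the start regions of hosts are shown here. Transcripts of ribosomal protein genes and of many snoRNA hosts are known to begin with a tract of pyrimidines that ties their translation to growth signals. RefSeq windows of GRCm38.p6, 33 in all, matched 31 of 43 hosts. Each sequence below runs 5′ to 3′ on the gene's own strand, from 40 bases before the annotated start to 20 bases from it, and capitals mark its longest run of C or T that lies within 20 bases on either side of the start. Rpl39 has a second run of the same length there, and only the first is marked. The first 5 are hosts of called members, and Rplp2, Rpl13a and Snhg3 enclose members that did not pass.
Rps3 (chr7:99483690-99483749, minus strand): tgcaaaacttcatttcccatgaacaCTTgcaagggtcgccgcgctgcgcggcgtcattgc
Rps12 (chr10:23787190-23787249, minus strand): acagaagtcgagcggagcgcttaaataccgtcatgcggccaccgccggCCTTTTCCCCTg
Rpl23 (chr11:97782420-97782479, minus strand): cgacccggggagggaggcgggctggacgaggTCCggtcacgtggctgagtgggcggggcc
Rpl39 (chrX:37085203-37085262, minus strand): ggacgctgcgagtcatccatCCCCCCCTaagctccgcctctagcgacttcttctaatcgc
Chd8 (chr14:52257741-52257800, minus strand): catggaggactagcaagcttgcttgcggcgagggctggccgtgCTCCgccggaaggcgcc
Rplp2 (chr7:141447611-141447670, plus strand): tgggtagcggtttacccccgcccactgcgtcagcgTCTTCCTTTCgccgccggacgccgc
Rpl13a (chr7:45128726-45128785, minus strand): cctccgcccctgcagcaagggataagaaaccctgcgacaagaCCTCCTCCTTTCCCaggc
Snhg3 (chr4:132353667-132353726, minus strand): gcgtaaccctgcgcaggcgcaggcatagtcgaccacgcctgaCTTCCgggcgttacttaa

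A run of at least 8 pyrimidines on the gene's strand was present within 20 bases of the start in 6 of 11 windows of ribosomal protein hosts (54.5%). It was present in 5 of 22 windows of other hosts (22.7%) and in 16.0% of all 32851 windows. Runs were measured only inside those 20 bases, so a run that crosses the edge, as the marked run in Rpl39 does, is counted short. Among the sequences shown, the longest runs were 14 bases in Rpl13a, 11 in Rps12, 10 in Rplp2 and 8 in Rpl39, and 3 in both Rps3 and Rpl23. Hosts of called and of uncalled members thus both include windows with and without such a run. Annotated starts can be off by some bases, so the letters describe these windows only.

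Rows of snoRNA particle proteins and of assembly factors were also mostly higher on the shRNA arrays. Of 25 such rows for 21 genes, 3 rose, 0 fell and 22 did not pass (10 had an unadjusted p under 0.05), where 5.63% of all rows were called. Of these rows 23 had a difference above 0, and the median was 0.10. In the H/ACA core, Dkc1, the pseudouridine synthase dyskerin, had 8.13, 8.11 and 8.01 on the shRNA arrays and 7.87 and 7.83 on the control arrays. Dkc1 rose by 0.24 (SE 0.051, limma adjusted p = 0.049). The core protein Gar1 was at 0.27 (limma adjusted p = 0.055), Nop10 at 0.10 (limma adjusted p = 0.28) and Nhp2 at 0.01 (limma adjusted p = 0.97).

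In the box C/D core no row of 8 passed, while 3 had an unadjusted p under 0.05. Fbl, the methyltransferase fibrillarin, had rows at 0.25 (limma adjusted p = 0.056) and 0.17 (limma adjusted p = 0.13), both with every shRNA array above both controls. Nop58 was at 0.16 and Nop56, itself the host of Snord57, at 0.12 (limma adjusted p = 0.15 and 0.32). The 4 rows of Snu13, which binds the kink turn of the snoRNA, ran from −0.03 to 0.08. The other list held 13 assembly and Cajal body factors, among them Nop14, which is known for its role in ribosome assembly. In that list Ruvbl1, an ATPase of the assembly complex, rose by 0.29 (SE 0.060, limma adjusted p = 0.044). Nop14, a small subunit assembly factor, rose by 0.31 (SE 0.057, limma adjusted p = 0.033), with 9.33, 9.25 and 9.17 against 8.93 and 8.95. Coil, the Cajal body scaffold coilin, was at −0.05 (limma adjusted p = 0.77).

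A list of non-coding host genes held 12 rows of Gas5, Snhg5, Snhg11, Snhg15, Snhg16 and Snhg17, of which only Gas5 encloses a member. In it 1 Gas5 row rose and 11 did not pass (8.33% called, against 5.63% of all rows). The difference was above 0 in 9 of the 12, against 51.1% of all rows, and the median was 0.03. Snhg15 had the next largest difference, 0.30 (limma adjusted p = 0.13).

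Other short structured RNAs had medians near that of all rows. Of 102 tested microRNA gene rows, 0 rose and 2 fell (1.96% called, against 5.63% of all rows), and the median difference was 0.01. An unadjusted p under 0.05 in either direction was found for 10 of them. The 2 that fell were Mir7-1 by 0.33 and Mir152 by 0.28 (limma adjusted p = 0.044 and 0.046). Of 11 other rows, 0 passed (2 had an unadjusted p under 0.05) and the median was 0.007. Among them, the RNase MRP RNA Rmrp was at −0.06, the RNase P RNA Rpph1 at 0.07 and the telomerase RNA Terc, which has an H/ACA domain, at −0.01. Scarna13, a guide RNA of the Cajal body, had 9.77, 9.60 and 9.82 against 10.08 and 9.88, a difference of −0.25 (limma adjusted p = 0.14). Rnu3a, the U3 box C/D RNA that the symbol rule leaves out, was at 0.31 (limma adjusted p = 0.24), with shRNA replicate 1 at 9.03 and the other shRNA arrays at 8.54 and 8.64, against 8.44 and 8.42. The spliceosomal RNAs Rnu12 and Rnu5g were likewise above both controls on every shRNA array, at 0.39 and 0.29 (limma adjusted p = 0.31 and 0.16). No test of snoRNAs against these RNAs was made, and microRNA rows were dimmer, with a median level of 5.39 against 8.09 for the snoRNA rows.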

How the data were processed

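Per the submitters' processing notes, the authors deposited log2 values from Affymetrix Expression Console (RMA, a method with background correction, quantile normalization and probe set summaries). Its version, any filter and the build were not given in the sources used here. No label states the log base, which was taken from RMA and the range of values. Symbols came from the platform annotation, where 21640 of 34760 rows have exactly 1 symbol, 1321 several and 11799 none listed.

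Rows with 1 symbol and a mean at or above the 25th percentile (4.22) were kept, 16230 in all, without choosing 1 row per gene. The shRNA and control arrays entered 1 limma fit (version 3.58.1, R 4.3.3; lmFit, then eBayes with no trend; 3 residual degrees of freedom), with Benjamini-Hochberg adjustment of two-sided p-values over all rows tested, at 0.05. The number of arrays limits the precision, and the median standard error was 0.052. On simulated data, with 200 of 16230 rows changed and independent errors between rows, the fit called 16.4% of true log2 differences of 0.25. It called 86% of those of 0.5, with 5.4% of calls false. Rows that did not pass can therefore hold small differences. The fit of the real arrays called 913 rows, and its rows share the same arrays. The simulated shares need not hold for these data. P-values measure the spread between transductions of 1 line. Median log2 signal was 5.29 to 5.32 on every array.

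The members and lists were chosen with earlier results of these data known. Named members are the called rows, the largest differences with groups apart, the brightest 5 per class, symbols with several rows, and their hosts; others were named after their values were seen. Hosts were found by containment in the RefSeq table, by the symbol's locus, not the probe's, and with no strand. Alternatives changed the filter, row choice, normalization, variance prior, array weights, replicate block and each array left out. Sequences of the snoRNAs were not used here. One host gene is not reported here.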

Additional observations from a re-analysis of the deposited data

How the results depend on the processing

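Of 49 tested snoRNA rows 10 were called, where 5.63% of all rows were. The share of all rows called was not counted under the alternatives, so changes in the counts below need not be particular to the rows counted. The count stayed between 8 and 12 with no filter, the brightest row per symbol, arrays centred on their median, repeated quantile normalization and array weights. It was 16 with the filter at the 50th percentile and 18 with a trended robust prior. It was 0 (24 at an unadjusted p under 0.05) when all 34760 rows were tested together in limma, where more and dimmer rows enter the adjustment. With the replicate number as a block it was 0 (26 at an unadjusted p under 0.05), in a limma fit left with fewer residual degrees of freedom, where shRNA replicate 3 has no partner and adds nothing to the difference. The numbers share no stated source, and same-numbered arrays deviated together with correlations of 0.072 and 0.031, so the block is no pairing. With 1 array left out the count ranged from 0 to 7; a lone control array was then assumed to vary like the shRNA arrays. The lists of particle proteins, non-coding hosts and other short RNAs together had 6 called rows, and 1 with no filter, 10 with the 50th percentile, 0 with all rows together, 15 with the trended robust prior, 1 with the replicate block and 0 to 5 with 1 array left out. The box C/D median of 0.13 was 0.15 at the 50th percentile filter, where dim rows are dropped, and 0.13 to 0.16 with 1 array left out; the H/ACA median of 0.18 was 0.060 (without control replicate 2) to 0.26. The gap between the class medians, −0.05, turned to 0.10 without control replicate 2 and was −0.12 at the lowest; the cause was not tested. Of the 49 rows, 39 kept their sign under every alternative run, the 10 called ones among them. In those 10 all shRNA arrays lay above both controls, so leaving out an array could not change it. Another 10 rows, uncalled and with differences of −0.02 to 0.21, changed sign in at least 1 alternative, through leaving out an array or the block.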
